A study of Mus musculus with 32 samples.

Results

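The genes described here are the subunits of ion channels and of transmitter-gated receptors that the array carried: 72 genes on 91 probes, of 17053 genes on 20794 probes in all. They were taken by gene symbol alone, as every symbol in the probe annotation that starts with Kcn (potassium channels), Scn and a digit (sodium channels), Cacn (calcium channels), Gabr (GABA receptors), Gria, Grid, Grik or Grin and a digit (ionotropic glutamate receptors), Grm and a digit (metabotropic glutamate receptors) or Chrn (nicotinic acetylcholine receptors). The rule itself uses no measured value. The set held 15 subunits and partners of voltage-gated potassium channels, 15 inwardly rectifying, 2-pore and calcium- or sodium-activated potassium channel subunits, 1 sodium channel subunit, 18 calcium channel subunits, 3 GABA receptor subunits, 12 ionotropic and 1 metabotropic glutamate receptor genes, and 7 nicotinic receptor subunits. A probe without a symbol was kept as its own unit and was never named. What is called all genes is therefore 9030 symbols and 8023 such probes.

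Voltage-gated channels open and close with the membrane potential and carry the action potential, while the transmitter-gated receptors turn a released transmitter into a current at the synapse or the motor end plate. Pore-forming subunits decide which ion passes, and accessory subunits (the Kcne, Kcnip, Kcnab, Kcnmb, Cacnb, Cacng and Cacna2d products among them) set gating, trafficking and sensitivity to calcium. Neurons hold the widest range of both classes, skeletal muscle uses a small set for excitation and contraction, kidney tubules use potassium channels for salt transport, and pancreatic islets use potassium and calcium channels to release insulin. Nox4 encodes an NADPH oxidase that makes hydrogen peroxide, and several of these channels are known to respond to oxidation.

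The study compared the transcripts of male Nox4 knockout mice (labelled −/−, C57BL/6, 17 weeks old) with a pool of RNA from wild-type males of the same strain and age, in brain, kidney, muscle and pancreas. The same 4 knockout animals gave all 4 tissues, and each tissue sample was hybridised on 2 two-colour cDNA arrays with the dyes exchanged, which makes 32 arrays. The pool came from 4 wild-type animals by the design text and from 6 control animals by the labelling protocol, so its size is not settled. How the knockout allele was built, and which muscle was taken, is not given in the sources used here.

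The deposited values are log2 ratios, most likely of knockout over wild-type pool. If they run the other way, higher and lower change places throughout. A value of 0 means equal signal in both channels, and a mean below is the mean over the animals of each animal's 2 arrays, with the standard error (SE) of limma. The pool counts as 1 control sample, so no test below includes the spread between wild-type animals. Because only ratios were used here, the tissue identity of a sample could not be checked from the level of its markers, and no probe was named Nox4 (0 of 20794). Whole tissue was measured, so fewer cells of a type and less RNA per cell cannot be told apart.

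No channel or receptor gene passed the test made within a tissue. In a fit of all 4 tissues together, with or without the animal as a block, Kcne3 and Kcnt1 passed in muscle, 2 of 70 members, against 1.57% of all genes. This fit takes 1 spread for each gene over all 4 tissues, though the tissues differed in spread. As medians over all genes, the SD ran from 0.10 (kidney) and 0.13 (brain) to 0.17 (muscle) and 0.22 (pancreas). By the joint fit 255 genes of the array passed in muscle, 57 in pancreas and 0 in kidney and in brain. The part of the shared spread in the calls of Kcne3 and Kcnt1 was not tested. Within each tissue, at a Benjamini-Hochberg adjusted p of 0.05 over all genes, limma called 0 of 72 (brain), 0 of 71 (kidney), 0 of 72 (muscle) and 0 of 71 (pancreas). The share of all tested genes called was 0% in each of the 4 tissues. At an unadjusted p under 0.05 brain had 4 of 72 members (5.56%) against 4.13% of all genes, of which 1 was higher (2.24% of all genes) and 3 were lower (1.89%) than the pool. Kidney had 11 of 71 (15.5%) against 9.28%, with 5 higher (4.28%) and 6 lower (5%). Muscle had 4 of 72 (5.56%) against 7.29%, with 3 higher (3.61%) and 1 lower (3.69%). Pancreas had 2 of 71 (2.82%) against 2.91%, with 1 higher (1.34%) and 1 lower (1.58%). Of the 4 tissues, kidney had the members' share farthest above its background. By limma, the smallest adjusted p of a member was 0.773 (brain), 0.511 (kidney), 0.538 (muscle) and 0.991 (pancreas).

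In every tissue the members lay on both sides of the pool. Means lay above 0 for 31 of 72 members in brain (53.4% of all genes), 33 of 71 in kidney (51.5%), 28 of 72 in muscle (41.6%) and 39 of 71 in pancreas (50.4%). The median log2 ratio of the members was −0.013 in brain against 0.0074 over all genes, −0.0079 in kidney against 0.0026, −0.024 in muscle against −0.024, and 0.0025 in pancreas against 0.0008. A mean beyond 0.3 in size was found for 6 members in brain (8.33%, against 3.71% of all genes), 1 in kidney (1.41%, against 1.63%), 7 in muscle (9.72%, against 9.02%) and 10 in pancreas (14.1%, against 9.97%). These counts keep means set by values at the floor of a dye channel, given below, such as Grin2b and Kcnj8 in brain. In pancreas they include Cacna1a, Chrna4, Chrnb1, Grin2b and Grin2d, and in muscle Cacna1a and Cacnb4. The shares of all genes keep such values too. All 4 animals lay above 0 for 4 of 71 members in brain (8.86% of all genes) and below 0 for 7 (6.73%). In kidney these counts were 10 of 70 (10.1%) and 7 (9.85%), in muscle 6 of 69 (6.85%) and 5 (12%), and in pancreas 5 of 68 (5.42%) and 4 (5.15%). All 8 arrays lay above 0 for no member in brain (0.404% of all genes), kidney (0.558%), muscle (1.56%) or pancreas (0.0969%). All 8 lay below 0 for 1 member in brain, Grin2a (0.496%), for 1 in kidney, Kcnj15 (0.899%), and for none in muscle (0.552%) or pancreas (0.142%). To either side of a mean, the median 95% interval of a member reached 0.19 for brain, 0.13 for kidney, 0.22 for muscle and 0.29 for pancreas.

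**Figure D1:**
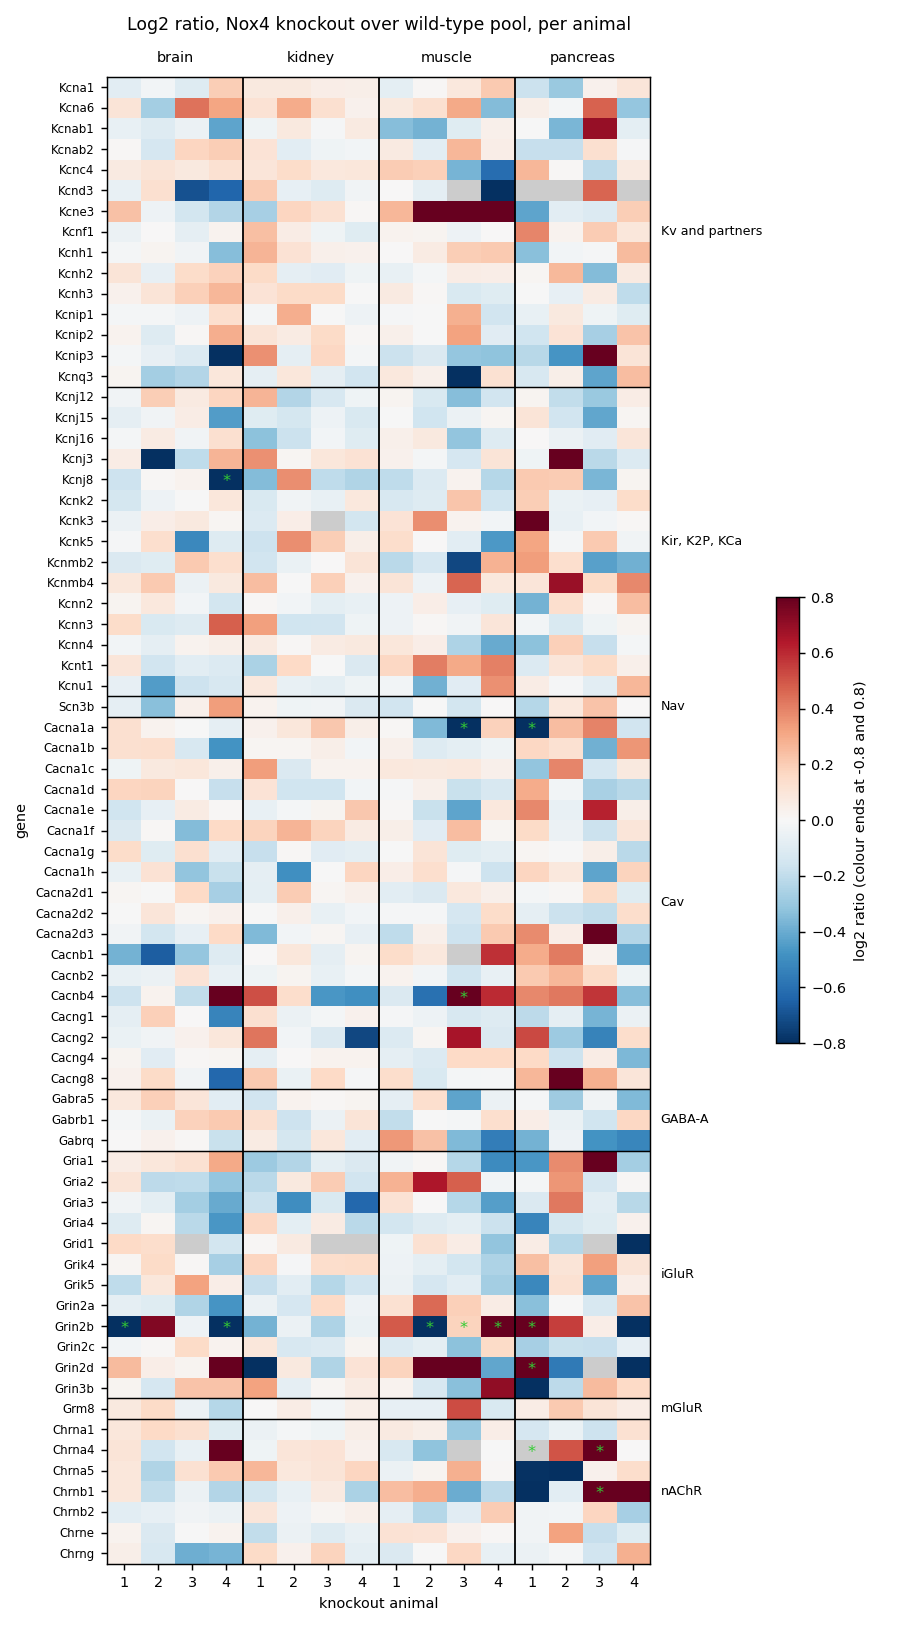
Log2 ratio of knockout over wild-type pool for each of the 72 genes (rows, grouped by family) in each of the 4 animals (columns) of brain, kidney, muscle and pancreas; colour runs from blue (below the pool) to red (above it) and ends at −0.8 and 0.8. Grey marks no value and a green asterisk marks an animal with a value at the floor of one dye channel. Kcne3 in muscle stands out as a red row in which animals 2, 3 and 4 lie at 0.98, 0.80 and 0.93.

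Among accessory subunits of voltage-gated potassium channels, Kcne3 in muscle lay farthest above the pool. Kcne3 encodes a single-span subunit that is known to assemble with Kcnq1 in epithelia and with the Kv3.4 channel, the product of Kcnc4, in skeletal muscle. Its log2 ratio in muscle was 0.26, 0.98, 0.80 and 0.93 in animals 1 to 4. All 4 animals lay above 0, animal 1 lowest, and 7 of 8 arrays were above 0. The mean was 0.74 ± 0.14 (SE, n = 4), a ratio of 1.67 with a 95% interval of 0.40 to 1.09 on the log2 scale, and the adjusted p of limma was 0.538. The 4 arrays that had the knockout sample in Cy5 (Cy5 arrays) gave a mean of 0.80 and the 4 that had it in Cy3 (Cy3 arrays) 0.69. Were the signs of the Cy3 arrays to be turned, the mean would be 0.055. In the fit of all 4 tissues together, with a spread shared by the tissues, Kcne3 and Kcnt1 passed. The smaller of their adjusted p by limma was 0.00695. It was 0.00708 with the animal as a block, and 255 genes of the array passed either way. That block was a correlation between tissues of an animal, at −0.0148, so the 2 fits could hardly differ.

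Kcne3 lay near the pool in the other 3 tissues. In brain its values were 0.23, −0.04, −0.14 and −0.24, with a mean of −0.05 ± 0.09 (SE, n = 4). In kidney the mean was 0.0087 ± 0.08 and in pancreas −0.11 ± 0.12 (SE, n = 4 each). Each of these groups held animals on both sides of 0. Kcnc4, the muscle partner, had muscle values of 0.20, 0.19, −0.37 and −0.61, so animals 1 and 2 lay above the pool and animals 3 and 4 below. Its brain values of 0.07, 0.11, 0.08 and 0.12 lay above 0 in all 4 animals, with a mean of 0.09 ± 0.04 (SE, n = 4), and its kidney mean was 0.10 ± 0.04 (SE, n = 4), also above 0 in 4 animals.

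The 2 start regions that RefSeq lists for Kcne3 are shown because it was the member with the smallest p in muscle and for brain minus muscle. Each line gives the 250 bases before a start (GRCm38.p6, plus strand, 5′ to 3′), and capitals mark an E-box, CANNTG on either strand, the core to which the myogenic factors of the MyoD family are known to bind.
Kcne3, chr7:100176420-100176669: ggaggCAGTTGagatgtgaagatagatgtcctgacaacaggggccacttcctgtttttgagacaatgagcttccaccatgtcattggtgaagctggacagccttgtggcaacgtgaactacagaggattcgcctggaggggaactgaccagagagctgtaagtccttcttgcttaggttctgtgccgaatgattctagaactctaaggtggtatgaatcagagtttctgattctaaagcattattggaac
Kcne3, chr7:100178433-100178682: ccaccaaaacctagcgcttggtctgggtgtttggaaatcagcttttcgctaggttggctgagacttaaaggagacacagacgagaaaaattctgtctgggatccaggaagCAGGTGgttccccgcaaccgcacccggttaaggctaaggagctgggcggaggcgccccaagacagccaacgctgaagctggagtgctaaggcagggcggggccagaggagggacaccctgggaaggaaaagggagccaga
Each window holds 1 E-box. Such a match is common. Of 80 windows of the 54 members with a RefSeq window, 50 held one (62.5%). Over all RefSeq genes with a window the share was 66.2% of 32841 windows. The members' windows had a median GC content of 58.6% and a median of 8 CpG, against 52.4% and 6 over all windows. Kcne3 lies on chromosome 7, as does Nox4, and so do the members Cacng8, Gabra5, Grik5, Grin2d and Kcnn4.

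Of the voltage-gated potassium channel genes, Kcne3 included, 7 of 15 had a mean above 0 in brain, 12 of 15 in kidney, 9 of 15 in muscle and 6 of 14 in pancreas. Kcnh3, whose channel is found mainly in forebrain neurons, had brain values of 0.03, 0.10, 0.19 and 0.27, all above the pool. Its mean was 0.15 ± 0.06 (SE, n = 4), but −0.03 on the Cy5 arrays and 0.33 on the Cy3 arrays. In muscle Kcnip3, a calcium-binding partner of Kv4 channels, had −0.17, −0.12, −0.31 and −0.32. All 4 animals lay below 0, with a mean of −0.23 ± 0.07 (SE, n = 4). In brain Kcnip3 had −0.01, −0.07, −0.11 and −1.30, where animal 4 lay far below the others and the mean was −0.37 ± 0.24 (SE, n = 4). The Cy3 array of brain animal 4 had the widest spread of the brain arrays, a median absolute deviation of 0.49. Kcnd3, the Kv4.3 pore that Kcnip proteins bind, is given for its size, a choice made after its values were seen. It had −0.06, 0.13, −0.69 and −0.63 in brain, with animals 3 and 4 low and a mean of −0.32 ± 0.16 (SE, n = 4). In muscle it had 0.0050, −0.08 and −1.07 in animals 1, 2 and 4, and a mean of −0.38 ± 0.25 (SE, n = 3). Kcnab1, which encodes a cytoplasmic beta subunit, had −0.06, −0.10, −0.05 and −0.42 in brain, where animal 4 lay apart and the mean was −0.16 ± 0.08 (SE, n = 4). Kcna6, a member of the Shaker family, had a kidney mean of 0.14 ± 0.05 (SE, n = 4), above 0 in 4 animals. Kcnf1, a silent modifier subunit, had a pancreas mean of 0.18 ± 0.09 (SE, n = 4), and its orientation means were −0.30 and 0.65.

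Among the other potassium channels, Kcnt1 in muscle came next to Kcne3. Kcnt1 encodes a potassium channel opened by intracellular sodium. Its muscle values were 0.16, 0.41, 0.30 and 0.40, all above the pool with animal 1 lowest, and 7 of 8 arrays lay above 0. The mean was 0.32 ± 0.07 (SE, n = 4), a ratio of 1.25, with an adjusted p of limma of 0.538. The 2 probes of Kcnt1 differed in muscle, with means of 0.62 ± 0.31 and 0.01 ± 0.14 (SD, n = 4 each), so the mean rests on 1 of them. In brain it had 0.10, −0.15, −0.09 and −0.11 and a mean of −0.06 ± 0.06 (SE, n = 4). Of the 15 genes of this family, 4 had a mean above 0 in muscle and 4 in kidney, against 6 in brain and 9 in pancreas.

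In kidney the tubule channel subunits Kcnj15 (Kir4.2) and Kcnj16 (Kir5.1), which form inward rectifiers of the basolateral membrane, lay below the pool. Kcnj16 had −0.33, −0.17, −0.02 and −0.10, all below 0 with animal 1 lowest, and a mean of −0.16 ± 0.06 (SE, n = 4). Kcnj15 had −0.10, −0.14, −0.04 and −0.12, with a mean of −0.10 ± 0.04 (SE, n = 4), and all 8 arrays below 0. Neither passed the test. Kcnj15 had means below 0 in the other tissues as well, at −0.12 in brain, −0.05 in muscle and −0.11 in pancreas. Of other channel genes of the kidney tubule, Kcnk5, Kcnmb4 and Kcne3 lay above the pool in kidney, at 0.11, 0.12 and 0.0087, and Kcnj8 below, at −0.10. Kcnj3, a subunit of the G-protein-gated rectifier, had a kidney mean of 0.15 ± 0.06 (SE, n = 4). Kcnu1, known as the pH-sensitive channel of sperm, had −0.06, −0.44, −0.16 and −0.13 in brain, all below 0, and a mean of −0.20 ± 0.08 (SE, n = 4). In pancreas Kcnmb4, the neuronal beta subunit of the large-conductance calcium-activated channel, had 0.10, 0.69, 0.15 and 0.39, all above the pool. Its mean was 0.33 ± 0.12 (SE, n = 4), from −0.26 on the Cy5 arrays and 0.92 on the Cy3 arrays.

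The member with the smallest p in brain was the calcium channel gene Cacnb1. Cacnb1 encodes the beta subunit of the skeletal muscle L-type channel, and it is expressed in brain as well. Its brain values were −0.38, −0.66, −0.31 and −0.10, all below the pool, animal 2 lowest. The mean was −0.36 ± 0.10 (SE, n = 4), a ratio of 0.778 with a 95% interval of −0.61 to −0.12 on the log2 scale, and 7 of 8 arrays lay below 0. The orientation means were −0.35 and −0.37, and the adjusted p of limma was 0.773. In muscle, where animal 3 had only 1 array, the other 3 animals had 0.15, 0.08 and 0.59, all above the pool, with a mean of 0.27 ± 0.13 (SE, n = 3).

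Of the 18 calcium channel genes, 7 had a mean above 0 in brain and in muscle, 9 in kidney and 11 in pancreas. Cacna1f, the pore of the retinal L-type channel, had kidney values of 0.18, 0.27, 0.18 and 0.07, all above the pool. Its mean was 0.17 ± 0.05 (SE, n = 4) and 7 of 8 arrays lay above 0. Cacng8, a partner of AMPA receptors, had 0.26, 0.92, 0.28 and 0.09 in pancreas, with a mean of 0.39 ± 0.15 (SE, n = 4). Its orientation means there were −0.27 and 1.05, on opposite sides of 0. Cacng1, the gamma subunit of the skeletal muscle channel, lay below 0 in 4 animals of muscle, at a mean of −0.07 ± 0.06, and in 4 of pancreas, at −0.18 ± 0.09 (SE, n = 4 each). Cacna1c, the pore of the cardiac and smooth muscle L-type channel, had 0.08, 0.08, 0.09 and 0.04 in muscle, a mean of 0.07 ± 0.06 (SE, n = 4). Scn3b, the only sodium channel subunit named in the probe annotation and an accessory one, had means between −0.08 and 0.02 over the 4 tissues.

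Ionotropic glutamate receptor genes made up 5 of the 11 members with an unadjusted p under 0.05 in kidney, where 9.28% of all genes had such a p. Of 11 measured genes 9 lay below the pool there and 2 above (51.5% of all genes). At that p 4 were lower (5% of all genes) and 1, Grik4, was higher (4.28%), with 0 passing the adjusted test of limma. Gria3, an AMPA receptor subunit, had −0.17, −0.50, −0.12 and −0.63 in kidney. All 4 animals and 7 of 8 arrays lay below 0, with the remaining array at 0, and the mean was −0.36 ± 0.09 (SE, n = 4), a ratio of 0.782. Gria1, another AMPA subunit, had −0.29, −0.23, −0.08 and −0.11, with a mean of −0.18 ± 0.05 (SE, n = 4). Grik5, a high-affinity kainate receptor subunit, had −0.18, −0.09, −0.23 and −0.16, and a mean of −0.16 ± 0.04 (SE, n = 4). Grin2b, an NMDA receptor subunit, had −0.38, −0.05, −0.25 and −0.05, and a mean of −0.18 ± 0.07 (SE, n = 4). Of the 2 probes of Grin2b, the one measured in 4 kidneys had a mean of −0.10 ± 0.06 (SD, n = 4), and the other had both arrays in only 1 animal, at −0.59. Grik4, the other high-affinity kainate subunit, had 0.17, −0.01, 0.14 and 0.15, 3 animals above the pool.
The neuron marker list, beside these values, had 7 of 8 measured genes below 0 in kidney at a median of −0.07 (range −0.14 to 0.15), and its part in the result was not tested.

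In brain the subunit gene with all 8 arrays below 0 was Grin2a. Grin2a encodes an NMDA receptor subunit that becomes prevalent in the adult forebrain. Its brain values were −0.08, −0.10, −0.24 and −0.47, all below the pool. Animal 4, which held the widest brain array, lay lowest. The mean was −0.22 ± 0.08 (SE, n = 4), a ratio of 0.858, with an adjusted p of limma of 0.773. In muscle it had 0.12, 0.45, 0.19 and 0.06, all above the pool, and a mean of 0.21 ± 0.09 (SE, n = 4). Gria3 had −0.03, −0.08, −0.27 and −0.40 in brain, with a mean of −0.20 ± 0.08 (SE, n = 4), and Gria1 had 0.06, 0.09, 0.12 and 0.30, with a mean of 0.14 ± 0.06 (SE, n = 4). Of 12 genes of this family in brain, 6 lay above 0 and 6 below. The neuron markers in brain had 5 of 8 genes above 0 at a median of 0.05.

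Gria2 encodes the AMPA subunit that, after RNA editing, keeps calcium out of the receptor. In muscle it had 0.28, 0.64, 0.48 and −0.02, with 3 animals above the pool and animal 4 at it. The mean was 0.35 ± 0.12 (SE, n = 4), with 0.62 on the Cy5 arrays and 0.07 on the Cy3 arrays. In brain it had 0.10, −0.21, −0.20 and −0.31, animal 1 above and 3 animals below, and a mean of −0.15 ± 0.08 (SE, n = 4). Start regions were taken for Kcne3, Cacnb1 and Gria2, the 3 members of smallest limma p for brain minus muscle with a RefSeq window. Those of Cacnb1 are left out here. The 250 bases before the Gria2 start are shown for the only match to the RE1 element among the 54 members with such a window. The match covers the 2 conserved parts of that element, through which the repressor REST is known to keep neuronal genes silent outside neurons. Bases are from GRCm38.p6 of RefSeq, minus strand, 5′ to 3′, and capitals mark the match.
Gria2, chr3:80802836-80803085: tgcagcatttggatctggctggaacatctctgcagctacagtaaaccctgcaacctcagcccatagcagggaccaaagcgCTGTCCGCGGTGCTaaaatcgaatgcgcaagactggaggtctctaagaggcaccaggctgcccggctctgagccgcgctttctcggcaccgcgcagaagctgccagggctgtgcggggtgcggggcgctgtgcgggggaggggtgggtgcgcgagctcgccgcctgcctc
The search was for AGCACC and GGACAG with 2 letters of any kind between them, on both strands. It matched 1 of the members' 80 windows (1.25%), and 15 of the 32841 windows of 27018 RefSeq genes (0.0457%). A match is a description of these letters and not of binding.

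Several receptor genes had values at the floor of a channel, which shifted several of their means far from 0. These values, from 15.4 to 17.2 in size, made up 0.281% of all values and fell on 15 probe values of 7 members: Cacna1a, Cacnb4, Chrna4, Chrnb1, Grin2b, Grin2d and Kcnj8. Grin2b in brain had −3.41, 0.74, −0.04 and −4.01, where animals 1 and 4 each held a floor value, and a mean of −1.68 ± 0.91 (SE, n = 4). Kcnj8, the vascular Kir6.1 subunit, had −0.17, 0.01, 0.03 and −7.95 in brain, where the floor value of animal 4 gave the mean of −2.02 ± 1.50 (SE, n = 4). Likewise Cacnb4 in muscle had a mean of 1.09 ± 0.88 (SE, n = 4), Chrnb1 in pancreas 2.10 ± 1.51 (SE, n = 4), and Chrna4 and Grin2d in pancreas 2.92 ± 1.87 and 2.17 ± 2.12 (SE, n = 3 each). Cacna1a, with means of −0.60 in muscle and −0.57 in pancreas, and Grin2b in pancreas held a floor value there too. Each of these rested on 1 or 2 floor arrays, and none is read as a difference.

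GABA receptor genes were few. Gabrq, the theta subunit, had −0.38, −0.04, −0.48 and −0.52 in pancreas, all below the pool with animal 2 nearest to it, and a mean of −0.35 ± 0.11 (SE, n = 4). Gabra5, whose subunit is concentrated in hippocampus, had 0.09, 0.19, 0.10 and −0.08 in brain, 3 animals above the pool, and a mean of 0.07 ± 0.06 (SE, n = 4). Its pancreas mean was −0.17 ± 0.10 (SE, n = 4), below 0 in 4 animals, with orientation means of 0.39 and −0.73. Gabrb1 had a brain mean of 0.08 ± 0.07 (SE, n = 4). Grm8, a presynaptic metabotropic receptor, had 0.06, 0.21, 0.10 and 0.06 in pancreas, all above the pool, and a mean of 0.11 ± 0.07 (SE, n = 4).

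The nicotinic subunits of the motor end plate were close to the pool in muscle. Chrna1 had a muscle mean of −0.03 ± 0.09, Chrnb1 −0.02 ± 0.14, Chrne, the adult subunit, 0.07 ± 0.06, and Chrng, the fetal one, −0.0029 ± 0.07 (SE, n = 4 each). Chrne lay above 0 in 4 animals of muscle, and the other 3 genes had animals on both sides. In brain Chrng had 0.05, −0.13, −0.39 and −0.37, with 3 animals below the pool and a mean of −0.21 ± 0.09 (SE, n = 4). Of the ganglionic and neuronal subunits, Chrna5 had 0.26, 0.08, 0.10 and 0.17 in kidney, all above the pool, and a mean of 0.15 ± 0.05 (SE, n = 4). In pancreas it had −0.79, −1.04, 0.03 and 0.14, animals 1 and 2 low, and a mean of −0.41 ± 0.24 (SE, n = 4).

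**Figure D2:**
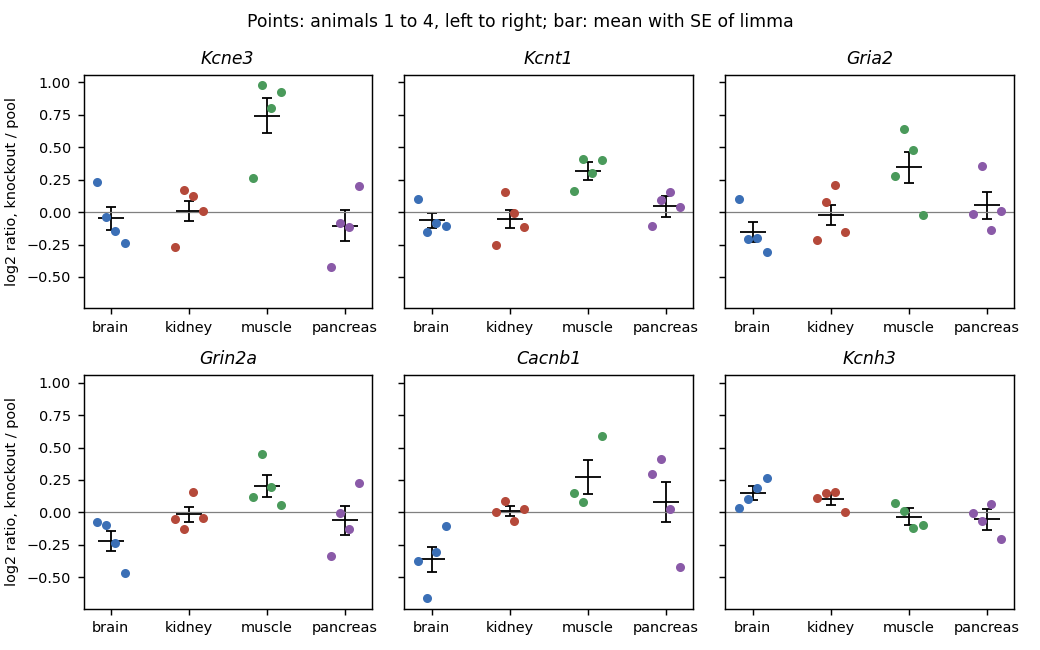
Log2 ratio of knockout over wild-type pool (vertical axis) of 6 genes in brain, kidney, muscle and pancreas; points are animals 1 to 4 from left to right, and the bar is the mean with the SE of limma. Kcne3 and Kcnt1 lie above 0 in all 4 animals of muscle and near 0 elsewhere, and Cacnb1 and Grin2a lie below 0 in all 4 animals of brain.

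Brain was then set against the other tissues in 1 limma fit of all 4, again with a spread shared by the tissues. For brain minus the mean of the other 3 tissues, 0 of 70 members passed (0% of all genes), and 5 had an unadjusted p under 0.05, against 6.57% of all genes. Of these 1 was higher (3.34% of all genes) and 4 were lower (3.23%) in brain. The median difference of the members was −0.03 in log2 ratio, against 0.013 over all genes. For no member did the 4 brain animals lie all above or all below the 12 other values (0 of 66, against 0.0938% of all genes above and 0.0402% below). Against single tissues the counts at an unadjusted p under 0.05 were 3 of 70 for kidney (2.92% of all genes), 6 of 70 for muscle (9.23%) and 8 of 70 for pancreas (8.29%), and 0 members passed in each, by the adjusted p of limma. For brain minus muscle 0.461% of all genes passed (75 of 16257), and 0 genes with the animal as a fixed factor in the fit.

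Cacnb1 gave the smallest p for brain against the mean of the others. Its mean was −0.36 in brain and 0.12 over the other 3 tissues, a difference of −0.48 ± 0.14 (SE), with an adjusted p of limma of 0.75. Brain was the lower one in each pair, by −0.37 ± 0.17 against kidney, −0.63 ± 0.19 against muscle and −0.44 ± 0.17 against pancreas. Grin2a had −0.22 in brain and 0.04 over the others, a difference of −0.26 ± 0.10. Chrng had −0.21 in brain and 0.03 over the others, a difference of −0.24 ± 0.10. Gria2 had −0.15 in brain and 0.13 over the others, a difference of −0.28 ± 0.12. Kcnh3, the only member higher in brain at an unadjusted limma p under 0.05, had 0.15 there and 0.0059 over the others, a difference of 0.14 ± 0.06. The adjusted p of limma was 0.75 for each of these. For Kcnh3 kidney lay near brain, at 0.10, a difference of 0.04 ± 0.08 (SE), while muscle and pancreas had −0.03 and −0.05.

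For brain minus muscle Kcne3 came nearest to the threshold. Its means were −0.05 in brain and 0.74 in muscle, a difference of −0.79 ± 0.17 (SE) with a 95% interval of −1.15 to −0.43, and the adjusted p of limma was 0.0593. With the animal as a fixed factor the smallest adjusted p of a member by limma was 0.0952. In limma's test of the differences within an animal it was 0.645, and 0 genes of the array passed in either. That of Kcne3 was 0.0426, under the threshold, when floor values were taken as missing (0.704% of all genes passed). Without animal 1, the animal with the lowest muscle value, Kcne3 and Kcnt1 both passed, at a smallest adjusted p of 0.00209, with 1.46% of all genes passing. Without animal 2, 3 or 4 neither passed. Muscle arrays differed in spread, with median absolute deviations of 0.21 and 0.24 in animal 1 and 0.23 and 0.32 in animal 2. In animals 3 and 4 they were 0.46 and 0.45, and 0.38 and 0.39. With arrays centred and scaled, the smallest adjusted p of a member by limma was 0.0832, with 0.135% of all genes passing. Kcnt1 had −0.06 in brain and 0.32 in muscle, a difference of −0.38 ± 0.10 with an adjusted p of limma of 0.114. Grin2a had −0.22 and 0.21, a difference of −0.43 ± 0.13, and Gria2 −0.15 and 0.35, a difference of −0.50 ± 0.15, at adjusted p of 0.219 and 0.236 by limma. Genes above 0 in brain and below in muscle included Kcnj12, the Kir2.2 rectifier, at 0.10 and −0.15, a difference of 0.25 ± 0.12.

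**Figure D3:**
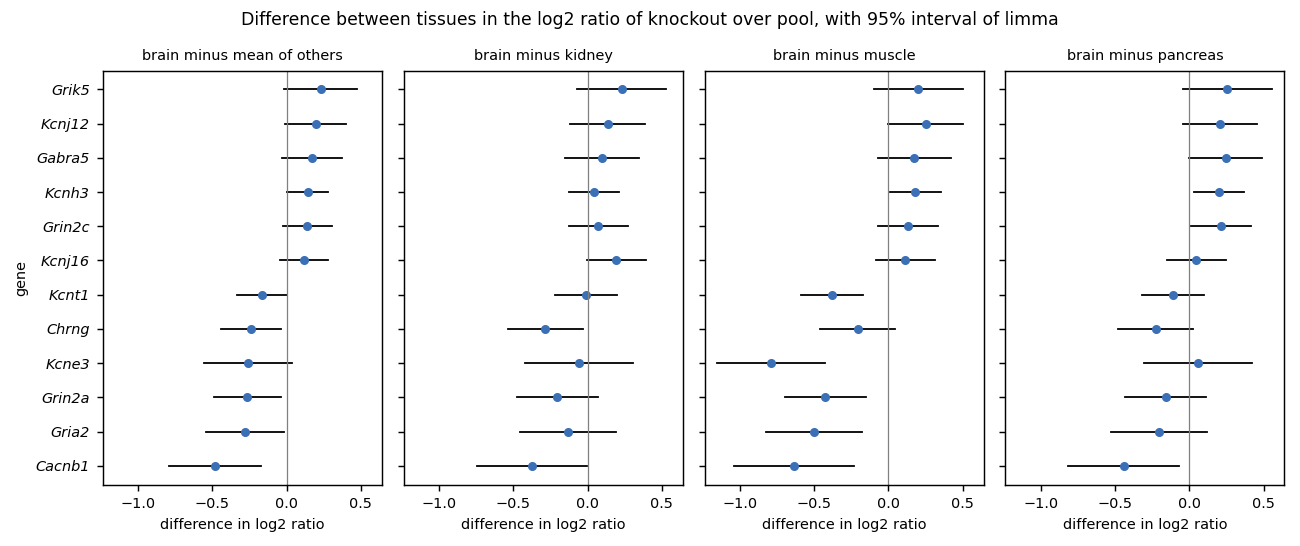
Brain minus another tissue, as the difference of their log2 ratios (horizontal axis), for 12 genes, 6 higher and 6 lower in brain by the rule for named genes; points are limma estimates and lines their 95% intervals. For Kcne3 brain is lower than muscle by −0.79 while the intervals against kidney and pancreas span 0, and for Cacnb1 brain is lower than each of the 3 tissues.

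Grouped by known use in a tissue, each set held genes on both sides of the pool. Of the genes of muscle excitation at the end plate and triad, 10 of 15 listed were on the array, 7 lay below and 3 above the pool in muscle, and their median was −0.02. Of kidney tubule channels 6 of 15 were on the array, with 3 above and 3 below the pool in kidney and a median of −0.04. Of islet and acinar channels 7 of 19 were on the array, with 4 above and 3 below in pancreas. Of the genes of fast transmission in brain 14 of 33 were on the array. In brain 4 lay above (53.4% of all genes) and 10 below, at a median of −0.07. This split was not particular to brain, as muscle also had 4 above (41.6% of all genes) and 10 below, at a median of −0.09. Kidney had 7 above and 7 below, and pancreas 8 above and 6 below. Over all genes the median was −0.024 for muscle, 0.0026 for kidney and 0.0074 for brain, and 0 genes of these lists passed in the tissue named, by the adjusted p of limma.

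Genes that act with the channels and receptors gave similar counts. Of 28 measured scaffold and partner genes, 14 lay above the pool in brain, and in kidney 4 of 27 had an unadjusted p under 0.05, against 9.28% of all genes. One of these was Fgf14, an intracellular partner of sodium channels, with −0.17, −0.17, −0.30 and −0.24 in kidney, all 8 arrays below 0 and a mean of −0.22 ± 0.04 (SE, n = 4). Of 27 genes for transmitter synthesis, uptake and release, 22 lay below and 5 above the pool in muscle (41.6% of all genes above) at a median of −0.06 (−0.024 over all genes), and 0 had an unadjusted p under 0.05 (7.29%). Of 24 other channel and receptor genes, Chrm3, the muscarinic receptor of smooth muscle and glands, had 0.48, 1.58, 0.31 and 0.67 in muscle. All 4 animals and all 8 arrays lay above 0, with a mean of 0.76 ± 0.22 (SE, n = 4) and an adjusted p of limma of 0.596. P2rx4, an ATP-gated channel, had a muscle mean of 0.24 ± 0.07 (SE, n = 4). No gene of these 3 lists passed in any tissue by the adjusted p of limma.

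Dye orientation limited what each gene could show. The 2 orientations gave means of opposite sign for 44 of 71 members in brain (63.3% of all genes), 45 of 70 in kidney (68%), 47 of 69 in muscle (65.6%) and 55 of 68 in pancreas (78.7%). A member's mean had a median size of 0.07 in brain and 0.06 in kidney, whereas an orientation lay at a median distance of 0.10 from that mean in either tissue. In muscle and in pancreas the median size was 0.07, and the distances were 0.15 (muscle) and 0.26 (pancreas). Of the 4 genes with the smallest p in pancreas, Kcnmb4, Cacng8 and Grik4 had orientations of opposite sign and Gabrq, at −0.52 and −0.18, of the same sign. With the signs of the Cy3 arrays turned, the brain means would be 0.01 for Cacnb1 and 0.10 for Grin2a, and the muscle mean of Kcnt1 would be −0.11. Of the 13 members with several probes, all probes had means of the same sign for 1 in brain, 6 in kidney and in muscle, and 5 in pancreas.

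**Figure D4:**
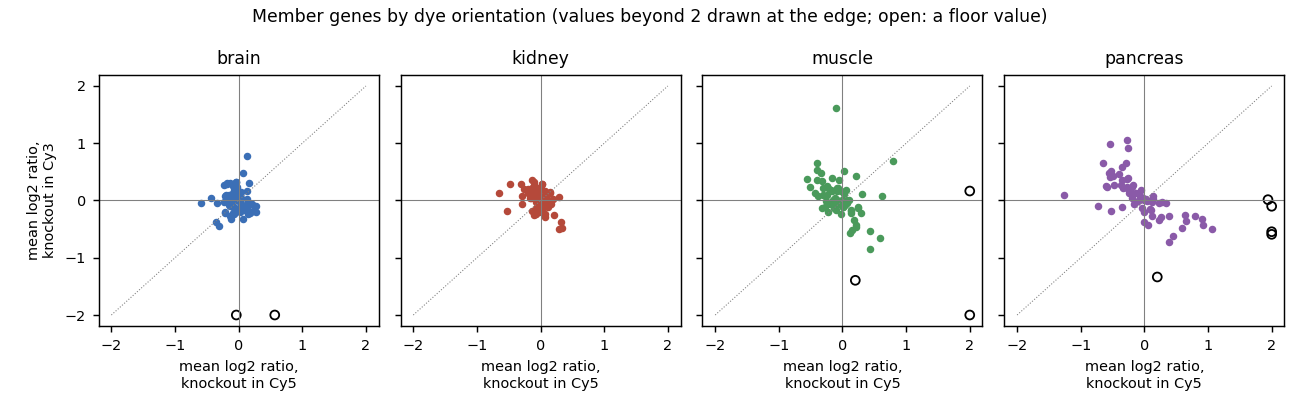
Mean log2 ratio of each gene over the arrays with the knockout in Cy5 (horizontal axis) and over those with the knockout in Cy3 (vertical axis), with a panel for each tissue; the dotted line marks equal values, open circles are genes with a floor value, and values beyond 2 are drawn at the edge. In pancreas 55 of 68 genes lie in the quadrants of opposite sign, and in muscle Kcne3 lies at 0.80 and 0.69, near the dotted line.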

How the data were processed

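Each array came as 1 log2 ratio for each probe, as the authors deposited it. The base is not named in the files and was inferred from floor values of up to 17.2. For the scanner, background correction and normalisation nothing is stated in the labels or files used. Arrays held 19815 to 20684 values, with medians from −0.07 to 0.05. Per the labels, 20 µg of total RNA was labelled indirectly with Cy3 or Cy5. Values beyond 8 in size (1844 of 655162) were kept. On arrays with the knockout in Cy5 all 920 were positive, and with it in Cy3 all 924 were negative. Signs were kept as deposited, and with these the channel at the floor is of the same dye on every array. With the Cy3 arrays turned, it would be the same sample, knockout or pool, in both dyes. The Cy3 arrays turned are given as an alternative, since r between an animal's 2 arrays ran from −0.58 to 0.063. If the deposited signs hold, a turned mean holds only what differs between the dye orientations.

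Probes of a symbol and then the 2 arrays of an animal (both needed) were averaged. In R 4.3.3, limma 3.58.1 tested each tissue's mean against 0 for genes with at least 3 animals, and brain minus the others in 1 fit of all 4 tissues, two-sided, with Benjamini-Hochberg adjustment over all genes and a threshold of 0.05. Code was tested on simulated data. Animal numbers pair the tissues, by the labels. Deviations of an animal correlated between tissues at r from −0.059 to 0.083, and the consensus correlation of the block was −0.0148. That block was used for the tissue means, and the animal was a fixed factor for brain minus the others.

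Symbols come from the probe annotation (12771 of 20794 probes had 1 symbol, 8023 had none), and all 72 members matched the RefSeq gene table. The members and lists were chosen with earlier results of these data known. Genes are named if called. Others named are the 5 members on either side of 0 with the smallest p among those of 1 sign in 4 animals, the 6 on either side for brain minus the other 3 tissues, the smallest p of each family, members of the tissue lists and up to 3 genes of each pathway list.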

Additional observations from a re-analysis of the deposited data

Results flagged for a closer look

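In 85 groups of 4 animals among the genes named, 4 held an animal far from the other 3 by Dixon's criterion, and chance marks about 1 in 20 groups. Grin2d in brain had 1.51 in animal 4 against 0.02 to 0.25 in the others. Kcnab1 in brain had −0.42 in animal 4 against −0.10 to −0.05. The Cy3 array of brain animal 4 had a median absolute deviation of 0.49, against 0.13 to 0.28 on the other brain arrays. Its part in these values was not tested. Gabra5 in kidney had −0.15 in animal 1 against 0.01 to 0.03. Grm8 in muscle had 0.52 in animal 3 against −0.12 to −0.07.

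For 3 genes all 4 animals lay on one side of the pool in 1 tissue and on the other side in another. Gria1 lay above in brain and below in kidney, by a difference in mean log2 ratio of 0.32, with an adjusted p of limma of 1. Grin2a lay below in brain and above in muscle, by −0.43, with an adjusted p of limma of 0.219. Grik4 lay below in muscle and above in pancreas, by −0.32, and that difference was not tested.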

How the results depend on the processing

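The number of members that passed the adjusted test of limma was 0 under every setting run for brain, kidney, brain minus the other 3 tissues and brain minus kidney. In muscle it was 1 with the signs of the Cy3 arrays turned (Cacna2d3, 1.97% of all genes), 2 with the replicate block (animal) and 2 with all 4 tissues in 1 fit (Kcne3 and Kcnt1, and 1.57% of all genes, in both). In pancreas it was 9 of 71 with the Cy3 arrays turned, where 2388 of all genes passed (14.6%). For brain minus muscle it was 1 (Kcne3) with floor values as missing (0.704% of all genes), 1 with arrays centred on their median (0.64%) and 1 with all 4 animals needed (0.656%), and 0 to 2 with each animal left out, 2 being the value without animal 1 (1.46%). For brain minus pancreas it was 5 of 70 with the Cy3 arrays turned (9.29% of all genes) and 3 of 72 with the Cy5 arrays alone (3.65%).

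The members' median log2 ratio in brain was −0.0351 with the Cy5 arrays alone, −0.0440 with the Cy3 arrays alone and −0.0171 to 0.0012 with each animal left out. In kidney it was −0.0203, 0.0357 and −0.0036 to 0.0087 in that order. In pancreas it was −0.0460 with the Cy3 arrays turned, −0.0558 with the Cy5 arrays alone and −0.0300 to 0.0164 with each animal left out. With the Cy3 arrays turned, 58 of 101 values of named genes changed sign, against 23 with the Cy5 arrays alone and 15 with the Cy3 arrays alone. In the fit of all 4 tissues, pairing by animal changed the call of no member. The cause was not tested. Spot brightness relative to its background did not enter any of these fits.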
